A study of Mus musculus with 141 samples.

Results

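Across 47 strains of the Collaborative Cross (CC), recombinant inbred mice that share the same founders, 180 genes had strain levels that ranked alike in liver, lung and kidney. A gene was taken as a member when Spearman's rho across the 47 strains was over 0.5 in each of the 3 tissue pairs (liver and lung, liver and kidney, lung and kidney). The members were chosen by these rho values alone and were 180 of 12127 genes tested (1.48%) and of 24423 genes in all. Testing required more than 1 CPM (counts scaled to library size) in at least 43 libraries, and all members passed this filter because the rule includes it. Because of this choice, rho, the number of strains at zero and the size of the spread are given as descriptions without a test.

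Each of the 47 strains was represented by 1 male mouse aged 8 to 12 weeks, from which liver, lung and kidney were each sequenced as 1 library, giving 3 groups of 47. All mice ate the NTP 2000 diet and spent 6 h a day on weekdays over 2 weeks in metal mesh chambers supplied with clear air, which all groups share. RNA was total RNA with ribosomal depletion. Since each strain is 1 mouse, a level that belongs to the strain and a level that belongs to the state of that mouse cannot be told apart.

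Strains of this panel are mosaics of the same founder genomes, and a gene whose level is set by its own sequence, by its copy number or by a regulator active everywhere can rank the strains alike in several organs. Stress and immune programs are another known source of coordinated levels within an animal: heat-shock genes encode chaperones that hold and refold proteins, and interferon-stimulated genes encode antiviral proteins. Genes of the major histocompatibility complex (MHC), which present peptides to T cells, are among the most variable genes between laboratory strains.

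Total counts per library ran from 1738046 to 42158454 in liver (median 10423382), 2829104 to 17585682 in lung (9338124) and 3046695 to 15028553 in kidney (8245850). Every library lay nearest to the mean of their labelled tissue. The ribosomal precursor Rn45s took 0.321% to 69.0% of the counts of a liver library (median 34.9%), 0.695% to 71.7% in lung (median 18.0%) and 0.146% to 63.1% in kidney (median 25.4%). CPM values were therefore scaled by TMM, which sets libraries level over the bulk of their genes, and the number of members depended on this step, since library totals without TMM gave 47. The rho of the scaling between tissues was 0.03 between liver and lung, 0.09 between liver and kidney and 0.17 between lung and kidney. A member's rho with the scaling exceeded 0.5 in size for 0 members in liver, 1 in lung and 1 in kidney. Over all genes tested, this rho exceeded 0.5 in size for 1.13% in liver, 0.915% in lung and 1.90% in kidney. At such shares few or no members would pass in any case, so these counts cannot tell the members from other genes.

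A pair of libraries stood apart from their labels. Over the members, the z-scores of a strain in one tissue were compared with those of the same strain in another tissue. The median r was 0.729 between liver and lung, 0.730 between liver and kidney and 0.756 between lung and kidney, against medians of -0.02 between different strains. The rule chose the members for such agreement between tissues, so a high r within a strain was built in. It is a description and no test of the labels, and genes outside the rule were not used. The liver library labelled CC032 had r of 0.01 with the CC032 lung and -0.01 with the CC032 kidney, but 0.739 with the CC012 liver, 0.658 with the CC012 lung and 0.626 with the CC012 kidney. The lung library labelled CC042 had r of 0.144 with the CC042 liver and 0.124 with the CC042 kidney, but 0.544 with the CC036 lung. Without these 2 strains the rule gave 199 genes, of which 172 were members, 27 entered and 8 left (Gne, Coa4, S100a8, Irgm2, 6820431F20Rik, A530032D15Rik, Brip1os and Fcer1g). The median of the lowest rho of the 180 members was then 0.609 in place of 0.586. Since the 2 strains were left out for their low r, a rise follows from that choice. Values below are from all 47 strains, and values without the 2 strains are given where they differ in kind.

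The median rho over the members was 0.639 between liver and lung, 0.655 between liver and kidney and 0.684 between lung and kidney, against 0.112, 0.148 and 0.132 over all genes tested. The lowest of the 3 rho values was over 0.6 for 84 members, over 0.7 for 40 and over 0.8 for 11. A single tissue pair passed 0.5 for more genes: 388 with liver and lung, 615 with liver and kidney and 597 with lung and kidney. Just inside the threshold lay Trim34a (lowest rho 0.501), H2-Q4 (0.501) and Herpud1 (0.501). Just outside lay Ccdc117 (0.499), B3gnt3 (0.497) and Sil1 (0.497).

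**Figure D1:**
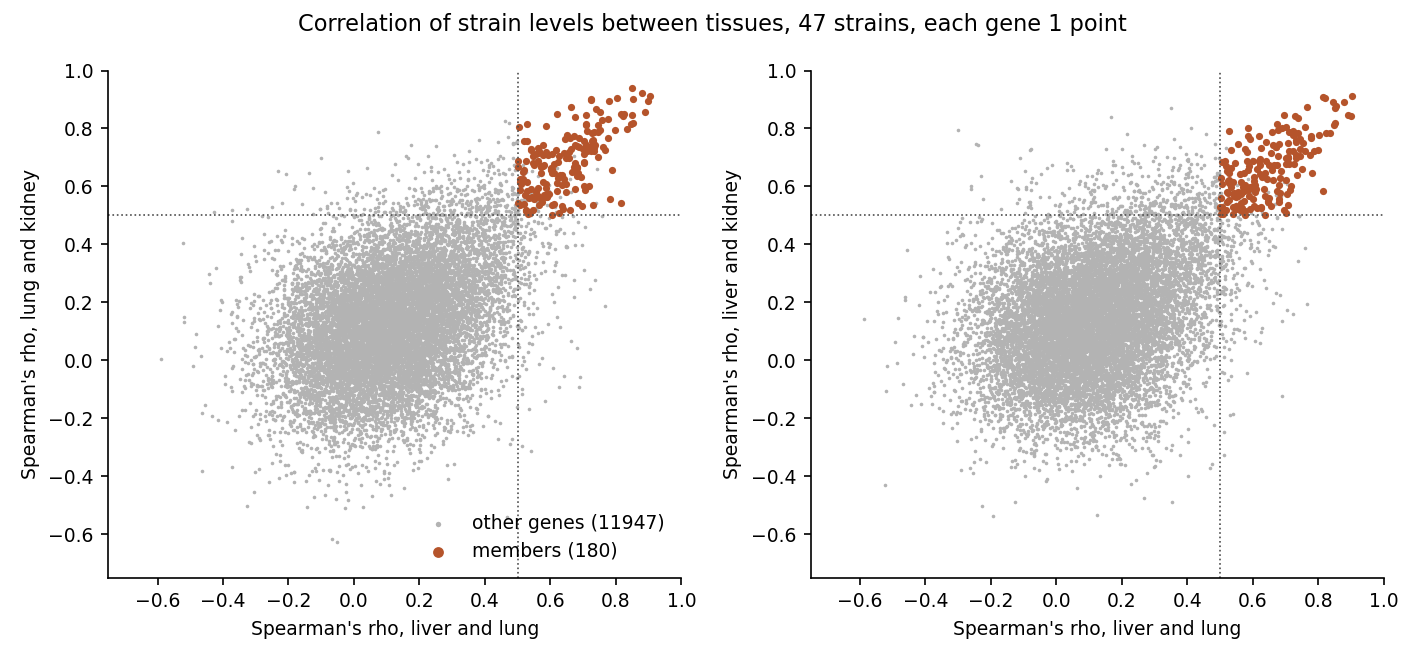
Each point is 1 of 12127 genes, placed by Spearman's rho over 47 strains for liver and lung (x axis, both panels) and for lung and kidney or liver and kidney (y axes), with dotted lines at 0.5. The 180 members (brown) lie at the upper right end of a cloud centred near 0.1 on each axis.

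The members that ranked the strains most alike were Trim5 (lowest rho 0.90), Rpl37 (0.88), Lyrm7 (0.85), Zfp979 (0.85), Akr1e1 (0.85), Gabra3 (0.84), Cox7c (0.82), BC018473 (0.82), 4930412C18Rik (0.81) and Gm8615 (0.81). They share no common function. Trim5, a restriction factor against retroviruses on chromosome 7, ran from 0 to 14 CPM in liver (median 0.857), 0 to 15.1 in lung (1.15) and 0 to 8.11 in kidney (0.194). Its 5 highest strains had CC016, CC033, CC041 and CC043 in common between all 3 tissues. Lyrm7, an assembly factor of respiratory complex III, ranged up to 7.52 CPM in liver, 5.07 in lung and 10.6 in kidney. Gabra3, a subunit of the GABA-A receptor on chromosome X, had medians of 0.193 CPM in liver, 1.36 in lung and 0.583 in kidney and was at or near zero in many strains. Akr1e1, an aldo-keto reductase on chromosome 13, ranged from 0 to 47.5 CPM in liver (median 12.3), 0.670 to 12.4 in lung (2.84) and 2.42 to 67.5 in kidney (20.5). The levels of its strains thus overlapped between tissues while their order was shared, with rho of 0.89, 0.85 and 0.86.

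Cox7c, which encodes a subunit of cytochrome c oxidase, was at 0 to 108 CPM in liver (median 5.15), 0 to 14.2 in lung (median 1.25) and 0 to 88.1 in kidney (median 5.96). Strains CC005, CC015, CC020, CC029, CC033 and CC059 were at or under 3 counts in all 3 tissues, and CC031 and CC039 were among the 5 highest in all 3. Only 52.4% of the 50-base windows of a Cox7c transcript occurred once in the genome, and reads shared with other copies would not have been counted. Among the genes the study names, Cox7c, Akr1e1 and Zfp979 were members. The lowest rho of those that were not members ran from -0.37 for Slc44a3 to 0.470 for Per2, a clock gene.

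Among the members, 14 split the strains by a step of over 1 log2 unit between neighbouring strains in each tissue with at least 5 strains on each side, and 24 of all genes tested did so (0.198%). The step was cleanest for Rpl37, Mndal and Mir703, where no strain changed sides between tissues. Rpl37, a protein of the large ribosomal subunit, was low in CC002, CC015, CC017, CC030 and CC039 and high in the other 42 strains. The 5 low strains reached at most 1.35 CPM in liver and the high strains at least 8.67, with corresponding limits of 1.09 and 7.40 in lung and 1.35 and 6.19 in kidney. Mndal, a member of the interferon-inducible p200 family on chromosome 1, was low in 28 strains and high in 19. Its low strains reached at most 1.74 CPM in liver, 3.18 in lung and 1.15 in kidney, and its high strains began at 4.76, 8.47 and 4.28.

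Mir703, a microRNA locus, was high in CC005, CC021, CC043, CC045 and CC061 alone. These 5 strains had 70.1 to 137 CPM in liver, 6.76 to 77.4 in lung and 36.9 to 64.7 in kidney, while the other 42 reached at most 5.29, 2.07 and 2.49. Its values are reads over the annotated locus and do not measure the mature microRNA. The mature sequence, from RefSeq (GRCm38.p6, chr5:98475616-98475636, minus strand), is shown because no strain changed sides at this locus, with the seed (bases 2 to 8) in capitals. The annotation that matches the study's build places a locus of this name on chromosome 9, so the position is uncertain.
mmu-miR-703: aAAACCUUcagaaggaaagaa

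Tceanc2, whose protein has a domain shared with an elongation factor of transcription, was low in 8 strains (CC001, CC002, CC012, CC013, CC017, CC041, CC053 and CC059) and high in 37. Its median was 12.4 CPM in liver, 12.9 in lung and 11.2 in kidney, with low strains at or under 2.75, 2.70 and 1.99. Olfr1033, an olfactory receptor gene, was high in 17 strains and low in 29, and only CC032 changed sides. Gm20594, a locus with no named product, had medians of 1034 CPM in liver, 106 in lung and 813 in kidney. In 11 strains it was low in all 3 tissues, with at most 4.43 CPM in liver, 2.02 in lung and 8.54 in kidney over all low libraries, and 32 strains were high.

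**Figure D2:**
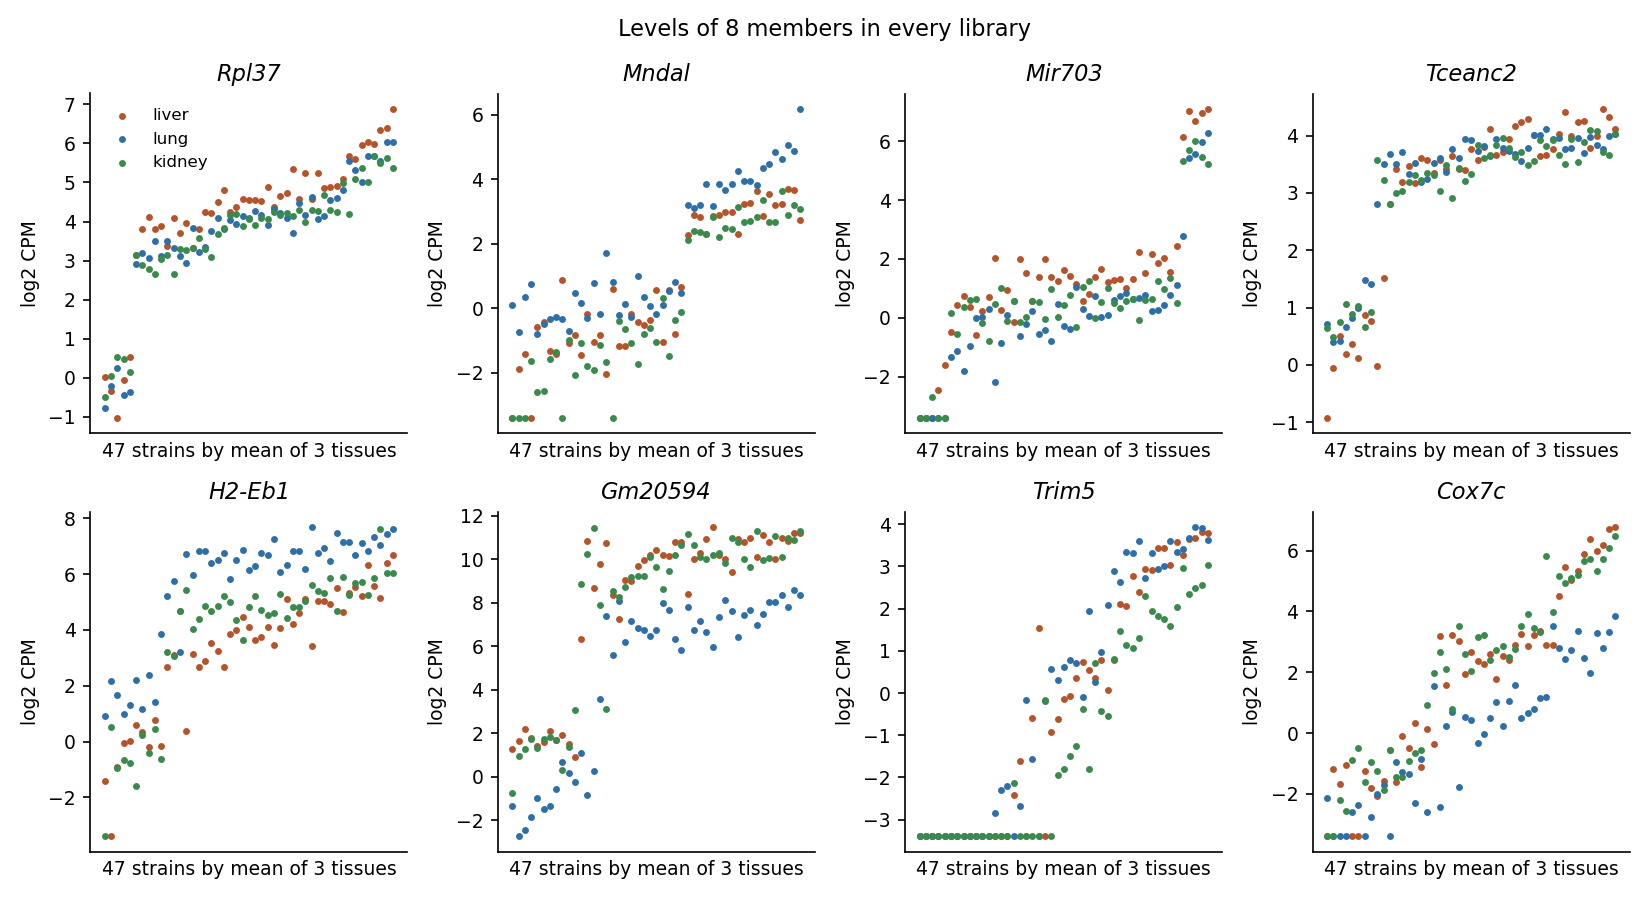
Log2 CPM (y axes) of 8 members in every library, with the 47 strains ordered along the x axis by the mean over tissues and 1 colour per tissue. Rpl37, Mndal, Mir703, Tceanc2, H2-Eb1 and Gm20594 fall into a low and a high level, whereas Trim5 and Cox7c have no step over 1 log2 unit in all 3 tissues.

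At least 1 strain was at or under 3 counts in all 3 tissues for 46 members, or 25.6%, against 7.24% of the genes tested. A count of 3 is the limit that a count of 0 allows, so a strain called at zero here is one in which the gene was not resolved at the depth of its libraries, and this covers counting error only. At least 5 such strains were found for 23 members and for 61 of all genes tested (0.503%), and at least 10 for 13 members of 15 genes. Olfr1033 was at zero in 28 strains, H2-Ea-ps in 24, St6galnac1 in 19, Gm1821 in 18, Trim5 in 17, Gabra3 in 15, BC018473 in 14 and C1s2 in 12. BC002163, C130046K22Rik and Hist1h2al followed with 11 strains each and AI506816 and Zfp429 with 10 each. Per strain, 1 to 16 members were at zero (median 6), with 1 in CC027, CC032 and CC042 and 16 in CC015. The rho of this number with the total of the smallest library of the strain was -0.16. Zero required all 3 libraries of a strain, and CC032 and CC042 each hold 1 library that stood apart from its label, so their numbers are uncertain.

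H2-Ea-ps ranged up to 453 CPM in liver, 179 in lung and 346 in kidney, while its medians were 0.205, 0.157 and 0.0932. C1s2, which encodes a serine protease related to complement C1s, reached 66.4 CPM in liver (median 19.9), 10.8 in lung (median 2.85) and 2.11 in kidney (median 0.542). BC018473 and its neighbour St6galnac1, a sialyltransferase gene 13.2 kb away on chromosome 11, were at zero together in 13 strains, which is 92.9% of the strains for BC018473 and 68.4% of those for St6galnac1. Ranked by the lowest rho of the 3 tissues, these neighbours were also the highest pair of members, with 0.85 in liver, 0.91 in lung and 0.87 in kidney. Only 64.6% of the windows of St6galnac1 occurred once in the genome.

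**Figure D3:**
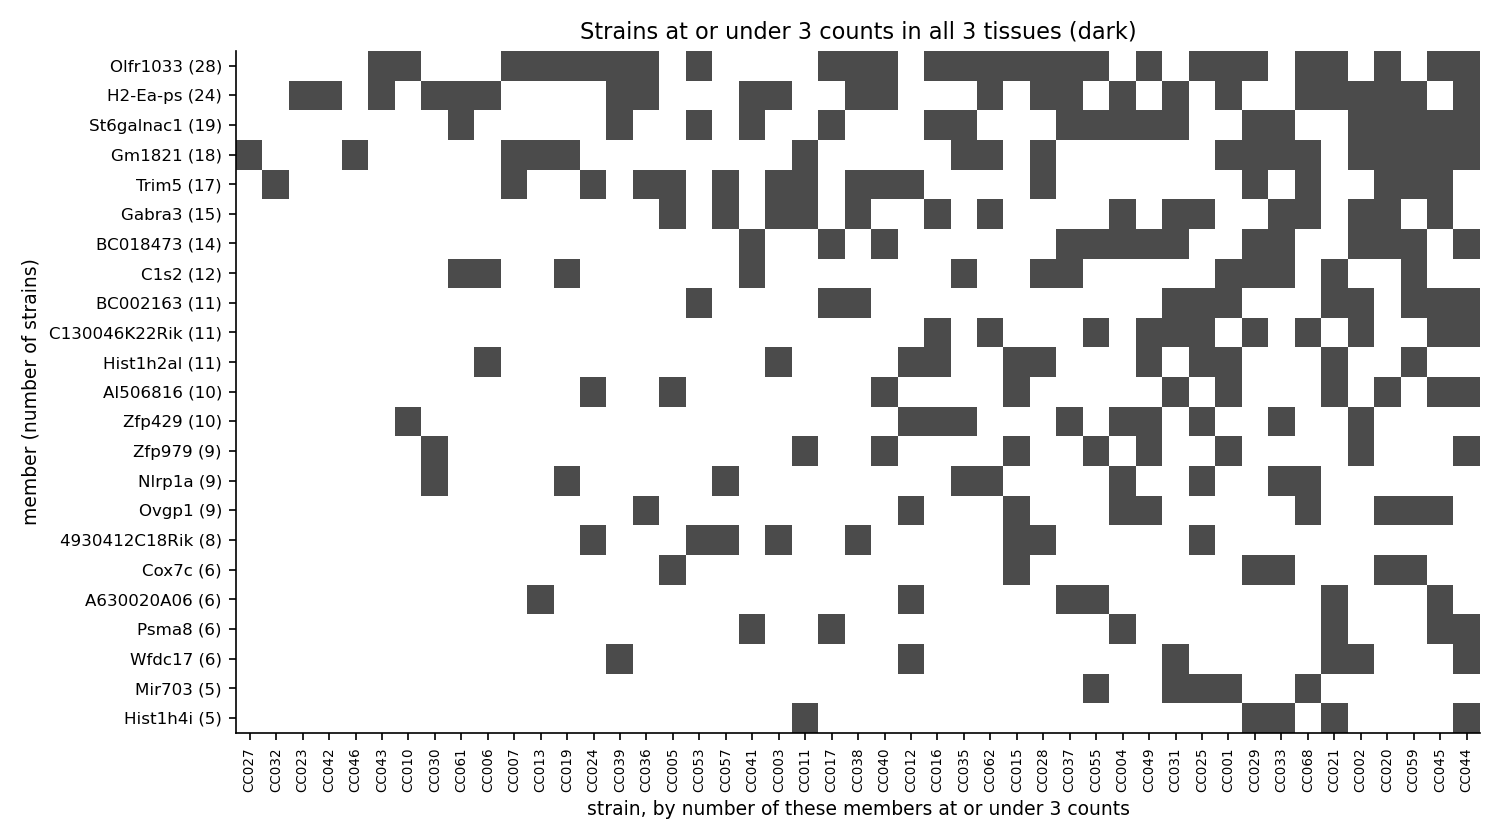
Members with the most strains at zero (y axis, number of strains in parentheses) against the 47 strains (x axis, ordered by how many of these members were at zero). A dark cell marks a strain at or under 3 counts in all 3 tissues, and the rows mark different sets of strains, from 28 for Olfr1033 downward.

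The SD of log2 CPM over strains, taken as the median of the 3 tissues, had a median of 0.871 over the members and of 0.427 over all genes tested. It was over 1 for 78 members (43.3%) against 9.59% of the genes tested, and 22 of the 50 genes with an SD over 2 were members. The median SD of the members was the wider in each bin of level. At 100 CPM and over in the tissue with the highest median, the median SD was 0.514 for 17 members and 0.294 for all genes, and at 1 to 3 CPM it was 1.47 for 30 members and 0.811 for all. The SD was largest in liver for 103 members, or 57.2%, against 67.5% of all genes tested. Among members with at least 10 CPM in a tissue, the widest were BC018473 (4.17), Gm20594 (3.83), H2-Eb1 (2.31), C1s2 (2.15), Gpr137b-ps (2.09), F830016B08Rik (1.97), Crym (1.83), Gm14403 (1.80), Gm4951 (1.67) and Rpl37 (1.62). Crym, which encodes a thyroid hormone binding protein, ran from 0.490 to 114 CPM in kidney (median 21.9), from 0.611 to 18.0 in liver and from 0 to 5.82 in lung. A wide spread was not a condition of membership, since 42 members had an SD under 0.5, down to 0.18 for Ddx23 and 0.19 for Baz1b.

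**Figure D4:**
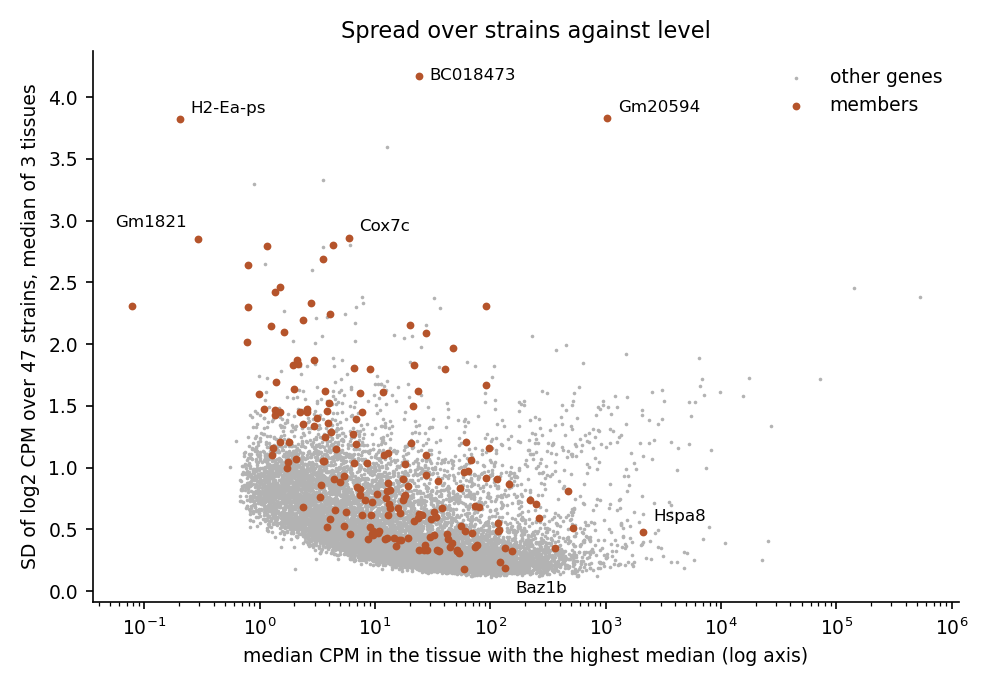
The SD of log2 CPM over 47 strains (y axis, median of the 3 tissues) against the median CPM in the tissue where it is highest (x axis, log scale), with the 180 members in brown and the other genes tested in grey. BC018473 (4.17) and Gm20594 (3.83) lie at the top, and Baz1b (0.19) lies among genes with little spread.

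By symbol or by gene list, 92 members fell into at least 1 class and 88 into none. Loci whose symbol is a number or a clone name made up 41 members of 786 tested (5.22%), with a median SD of 1.19, and pseudogene symbols 5 of 21. Their products were not checked, so some may belong to the other classes. Transcripts that RefSeq lists only as noncoding were 20.6% of the members against 5.30% of the genes tested. Genes with zinc finger symbols, many of them transcriptional repressors, were 14 of 332 (4.22%), MHC genes 7 of 25 (28.0%), heat-shock and cold-inducible genes 6 of 19 (31.6%) and listed interferon response genes 6 of 31 (19.4%). Beside the 1.48% of all genes tested, members were 2 of 79 ribosomal protein genes (2.53%, Rpl37 and Rpl21), 3 of 89 genes with respiratory chain symbols (3.37%, Cox7c, Atp5sl and Ndufa12), 1 of 16 glutathione transferases (Gstm7) and 0 of 63 cytochrome P450 genes. Classes by symbol follow the name and not the function, so Lyrm7 was not counted with the respiratory chain symbols. Of the core clock genes 0 of 9 were members, of the immediate-early genes 0 of 20, and of the clock output genes 1 of 15 (Herpud1). At 1.48% of genes, lists of this size would hold few or no members in any case. The glucocorticoid list had 2 of 16 (Zbtb16 and Map3k6), and the lists of red cell, B cell, T cell and Y chromosome genes had none of 5, 6, 6 and 3 tested.

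The 7 MHC members were H2-T23, H2-Eb1, H2-Ea-ps, H2-K1, H2-Q2, H2-T24 and H2-Q4, with SDs from 0.674 to 3.82. H2-K1, a classical class I gene, ran from 143 to 1482 CPM in liver (median 471), 50.02 to 1235 in lung (212) and 28.9 to 1030.2 in kidney (74.0). H2-T23, a nonclassical class I gene, had medians of 97.4, 29 and 19.8 CPM, and CC003, CC006, CC033 and CC059 were among the 5 lowest strains in every tissue. H2-Eb1, the beta chain of the class II E molecule, ran from 0 to 102 CPM in liver (median 14.2), 1.78 to 204 in lung (91.6) and 0 to 197 in kidney (28.2). It was low in CC012, CC015, CC019, CC021, CC025, CC035, CC039, CC053, CC055 and CC062 and high in 35 strains. H2-Ea-ps, the gene of the alpha chain of the same molecule and annotated as a pseudogene, was low in 27 strains and high in 18, and 4 strains (CC021, CC025, CC039 and CC062) were low in both. In whole tissue, fewer cells of a type and less RNA per cell cannot be told apart. The summed CPM of 4 B cell markers, 0 of which were members, ran from 0 to 4.81 in liver, from 2.68 to 109.9 in lung and from 0 to 7.46 in kidney, with rho between tissues of 0.622, 0.492 and 0.490, and its part in the class II values was not tested.

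The 6 heat-shock and cold-inducible members were Hsph1 and Hspa8 (Hsp70-family chaperones), Hspa1b (the stress-inducible Hsp70), Stip1 and Chordc1 (co-chaperones of Hsp90) and Cirbp (a cold-inducible RNA-binding protein). None had a strain at zero, and their SDs ran from 0.360 to 1.61. The rest of the 19 tested genes of this list were not members, and their lowest rho ran from -0.05 for Dnaja1 to 0.474 for Hsp90ab1. Among these, that of Hspa1a was 0.383 and that of Rbm3 was 0.151. Hsph1 ran from 8.69 to 319 CPM in liver (median 47.7), 12.8 to 203 in lung (29.9) and 45.8 to 289.8 in kidney (92.4). Its 5 highest strains had CC015, CC041 and CC061 in common between tissues, and so did those of Hspa1b, with CC049 besides. Hspa1b ran from 1.38 to 135 CPM in liver (median 6.95), 1.28 to 119 in lung (4.73) and 2.15 to 86.2 in kidney (7.46). Hspa8, at medians of 1321, 746 and 2118 CPM, ranged less, as did Chordc1 (44.4, 31.0 and 46.8) and Stip1 (73.6, 39.2 and 65.2). Only 8.54% of the windows of Hspa8 and 37.7% of those of Hspa1b occurred once in the genome, so reads from near-identical copies are uncertain for these genes.

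Across strains the 5 chaperone genes among the members tended to vary together. Hsph1 had rho of 0.83, 0.85 and 0.80 with Chordc1 (liver, lung and kidney), 0.76, 0.86 and 0.80 with Stip1 and 0.68, 0.75 and 0.74 with Hspa1b. Its rho with the share of Rn45s was 0.07, -0.03 and -0.13. At rho over 0.6 in each tissue these 5 chaperone genes and Baz1b, a chromatin remodelling gene, formed the largest group of linked members, spread over chromosomes 5, 9, 17 and 19. A gene joined the group through any such pair, and not every pair passed: Stip1 was linked through Hsph1 alone and Baz1b through Chordc1 alone. Cirbp moved the other way. Its levels ran from 3.67 to 31.8 CPM in liver (median 17.4), 4.59 to 39.0 in lung (25.3) and 4.93 to 37.2 in kidney (18.9), and CC015 and CC061 were among its 5 lowest strains in every tissue. Of 16110 pairs of members, 3 had rho under -0.6 in each tissue, and all were with Cirbp: Hsph1 (-0.66, -0.75 and -0.71), Chordc1 (-0.66, -0.73 and -0.69) and Hspa8 (-0.62, -0.77 and -0.66). These correlations are over 47 strains, whose 3 libraries share a mouse.

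**Figure D5:**
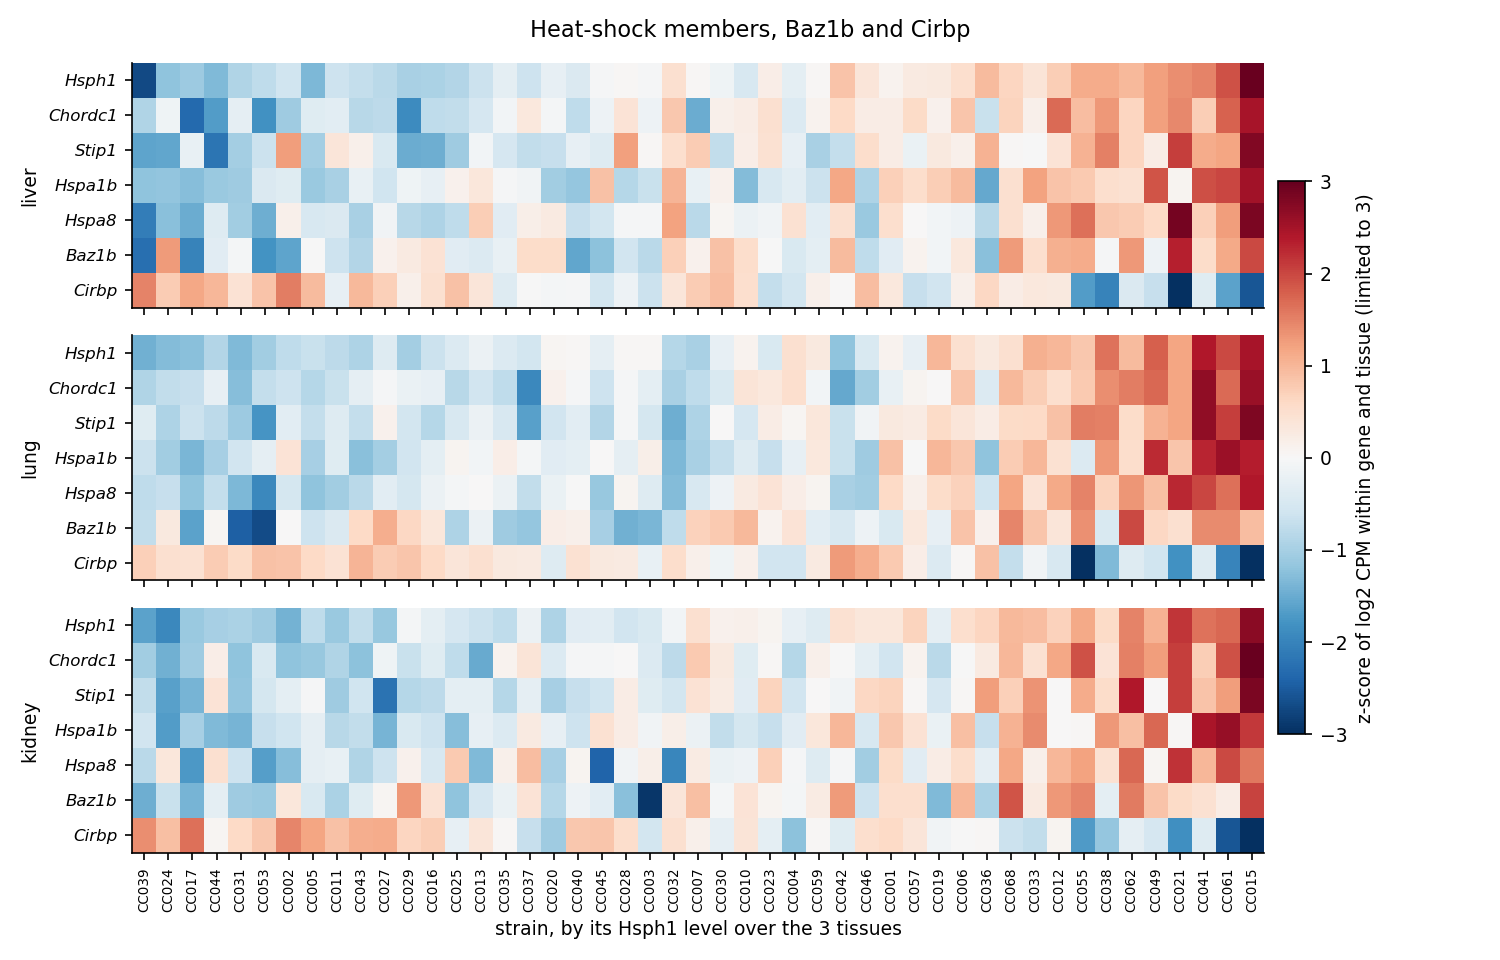
Z-scores of log2 CPM within gene and tissue (colour, limited to 3) for 5 chaperone genes, Baz1b and Cirbp in liver, lung and kidney, with the 47 strains ordered by Hsph1. The colour of the chaperone genes and Baz1b tends from blue to red along the strains in every tissue, and that of Cirbp tends the other way.

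Promoters of heat-shock members are shown because the chaperone genes among them tended to vary together. Matches to GAANNTTC, the core of the heat-shock element, are in capitals (its reverse complement is the same pattern). The promoters span 250 bases before to 50 after the RefSeq start in GRCm38.p6, and 115 of the 180 members had an entry. Hsph1 (chr5:149636287-149636586, minus strand) and Hspa1b (chr17:34959189-34959488, minus strand) each held 1 match and Chordc1 (chr9:18292017-18292316, plus strand) held 2. Stip1 and Cirbp had no match in this window.
Hsph1: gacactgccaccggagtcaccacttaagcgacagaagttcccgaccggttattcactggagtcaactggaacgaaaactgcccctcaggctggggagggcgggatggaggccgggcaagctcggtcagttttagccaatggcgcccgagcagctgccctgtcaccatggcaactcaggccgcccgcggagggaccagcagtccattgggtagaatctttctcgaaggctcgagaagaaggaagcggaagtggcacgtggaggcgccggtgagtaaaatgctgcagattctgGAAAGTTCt
Hspa1b: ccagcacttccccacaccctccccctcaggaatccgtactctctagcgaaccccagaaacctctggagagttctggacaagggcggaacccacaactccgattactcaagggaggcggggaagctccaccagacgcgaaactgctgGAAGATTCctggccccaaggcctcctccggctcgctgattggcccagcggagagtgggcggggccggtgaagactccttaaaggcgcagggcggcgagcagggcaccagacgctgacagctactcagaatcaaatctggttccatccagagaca
Chordc1: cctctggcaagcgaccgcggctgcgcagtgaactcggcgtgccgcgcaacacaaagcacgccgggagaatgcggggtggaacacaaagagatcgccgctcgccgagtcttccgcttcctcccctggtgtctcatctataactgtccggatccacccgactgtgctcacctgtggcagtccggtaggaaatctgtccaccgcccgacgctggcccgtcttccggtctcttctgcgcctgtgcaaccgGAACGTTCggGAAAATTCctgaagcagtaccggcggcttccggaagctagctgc
The pattern occurred in 3 of 5 heat-shock members with an entry, in 9 of 15 tested genes of the heat-shock list, in 9.57% of the members with an entry, in 6.93% of the genes tested and in 9.04% of all genes with an entry. Counted per promoter, 7.86% of all held it. A match is a description of these letters and not a binding site.

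The 6 members on the interferon response list were Oasl2, Ifi44, Tgtp2, Parp14, Rtp4 and Ifit3, with SDs from 0.494 to 1.88. The list is not complete, since Mndal, of an interferon-inducible family, is not on it. Oasl2, an antiviral oligoadenylate synthetase-like gene, ran from 1.16 to 20.02 CPM in liver (median 4.17), 6.02 to 175 in lung (18.2) and 2.53 to 18.9 in kidney (5.25). Its 5 highest strains had CC016 and CC033 in common. Parp14, an ADP-ribosyltransferase, ran from 43.4 to 260.3 CPM in liver (median 103), 85.9 to 381 in lung (118) and 17.2 to 182 in kidney (29.1). Rtp4, a transporter of receptors, had medians of 13.4, 9.20 and 3.40 CPM, and Ifit3, which binds viral RNA with other Ifit proteins, of 6.70, 17.5 and 7.37. The lung library of CC040 was the highest for 5 of the 6, with Ifit3 at 188 CPM against 36.6 in the next lung library, Oasl2 at 175 against 50.1 and Ifi44 at 90.3 against 21.9. CC016 had the highest kidney level of 5 and the highest Tgtp2 in all 3 tissues, at 42.0, 49.3 and 65.9 CPM, where the kidney of the next strain reached 6.28. Outside the list, CC016 and CC024 were among the 5 highest strains in all 3 tissues for Irgm2, Gm12250, Nlrc5, Gm4951 and H2-Ea-ps, as they were for Tgtp2. Without CC040, a setting chosen after seeing the data, 5 of the 6 kept a lowest rho over 0.5 and that of Rtp4 was 0.490. Parp14 and Rtp4 had rho of 0.71, 0.81 and 0.73 with each other, and with Oasl2 they formed a group at rho over 0.6 in each tissue.

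The promoters of Ifit3 (chr19:34583279-34583578, plus strand) and Tgtp2 (chr11:49064163-49064462, minus strand) are shown with GAAANNGAA, the core of the interferon-stimulated response element, or its reverse complement in capitals.
Ifit3: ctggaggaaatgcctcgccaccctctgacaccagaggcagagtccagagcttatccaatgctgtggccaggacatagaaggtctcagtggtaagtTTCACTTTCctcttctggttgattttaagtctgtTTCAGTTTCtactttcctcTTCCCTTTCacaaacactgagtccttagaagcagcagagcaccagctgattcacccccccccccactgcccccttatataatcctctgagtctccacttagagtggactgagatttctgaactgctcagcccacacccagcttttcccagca
Tgtp2: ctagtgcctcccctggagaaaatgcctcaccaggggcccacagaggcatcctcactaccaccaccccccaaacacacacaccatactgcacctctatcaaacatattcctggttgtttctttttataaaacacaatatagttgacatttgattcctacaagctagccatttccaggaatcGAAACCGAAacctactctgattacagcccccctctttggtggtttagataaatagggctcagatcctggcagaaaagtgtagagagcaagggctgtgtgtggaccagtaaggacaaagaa
Ifit3 held 3 matches and Tgtp2 held 1, as did Ifi44, whereas Oasl2 had none in this window. The pattern occurred in 3 of 4 interferon members with an entry, in 16 of 22 tested genes of the list, in 13.0% of the members with an entry, in 8.23% of the genes tested and in 9.76% of all genes with an entry. Counted per promoter, 8.56% of all held it. Only 9.59% of the windows of Tgtp2 occurred once in the genome.

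The 14 zinc finger members had SDs from 0.325 to 2.81, and 7 of them had at least 1 strain at zero. Zfp979 ran from 0 to 12.0 CPM in liver (median 1.41), 0 to 44.7 in lung (4.30) and 0 to 39.5 in kidney (3.18). Zfp970 on chromosome 2 was more abundant, from 25.5 to 1318 CPM in liver (median 114), 19.5 to 277 in lung (60.3) and 18.7 to 115 in kidney (34.8). Its rho with its neighbour Gm14403 was 0.94, 0.90 and 0.74, and both were high in CC021 and CC024 and low in CC003, CC023 and CC035 in every tissue, although 31.4% of the windows of Zfp970 and 74.7% of those of Gm14403 occurred once. Zbtb16, a transcription factor induced by glucocorticoids, ran from 6.22 to 134 CPM in liver (median 32.5), 7.56 to 365 in lung (68.4) and 1.94 to 64.2 in kidney (8.28), with CC005 and CC015 among the 5 highest in each. Map3k6, a kinase of the same list, had medians of 1.23, 17.8 and 3.18 CPM.

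Of the metabolic members, Glo1, which clears methylglyoxal, ran from 132 to 577 CPM in liver (median 262), 9.48 to 48.4 in lung (22.0) and 24.5 to 105 in kidney (46.2). Gstm7, a glutathione transferase, ran from 35.4 to 298 CPM in liver (median 63.9), 1.04 to 9.23 in lung (2.59) and 1.41 to 55.0 in kidney (4.73). The order of the strains was shared although the liver range of both genes lay wholly above the lung range. Ahcy, the hydrolase of S-adenosylhomocysteine, ran from 24.3 to 368 CPM in liver, from 0 to 2.30 in lung and from 1.95 to 59.8 in kidney, and 27.9% of its windows occurred once. S100a8, a calcium-binding protein of neutrophils, had medians of 0.441, 6.44 and 0.177 CPM, with CC004, CC016, CC017 and CC040 among the 5 highest in every tissue. Its lowest rho was 0.493 without CC032 and CC042. It is 1 of 4 neutrophil markers, whose summed level ran from 0 to 36.5 CPM in liver, from 1.39 to 124 in lung and from 0 to 5.73 in kidney. The rho of this sum was 0.539, 0.462 and 0.610. Its medians of 0.554, 7.14 and 0.183 CPM lay close to those of S100a8 alone, so the sum largely restates S100a8. Of 10 neutrophil and acute phase genes tested, S100a8 was the 1 member, and the lowest rho of Ltf was 0.147 and that of Retnlg 0.266.

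Members lay near each other in part. Of 175 members with a position in mm9, the build of the files, 63 lay within 1 Mb of another member, in 63 pairs whose median rho (mean of tissues) was 0.126. The same count was not made for other sets of genes tested, so it cannot be said whether 63 is more than usual. In 47 strains, rho was over 0.5 in each tissue for 7 of these pairs and under -0.5 for 2 (Gstm7 with 4933431E20Rik and Zfp951 with D930016D06Rik). The largest cluster held 10 members at chr17:34092757-36169800 (mm9), the MHC: Vps52, H2-K1, H2-Eb1, H2-Ea-ps, Hspa1b, D17H6S56E-5, H2-Q2, H2-Q4, H2-T24 and H2-T23. Other clusters were Trim34a, Trim5 and Trim34b at chr7:111392971-111489207, Gm14295, Zfp970, Gm14403 and Gm14325 at chr2:176583317-177575041, and the inflammasome sensor genes Nlrp1a and Nlrp1b at chr11:70904699-71044235. Of 16 pairs with rho over 0.6 in each tissue, 6 lay within 1 Mb and 7 on different chromosomes.

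Sequence shared with other places in the genome was counted per transcript. Among 176 members with a value, the median share of 50-base windows that occurred once in the genome was 98.7%, against 100% over all genes tested. Under 50% of the windows were unique for 28 members (15.9%) and for 3.03% of the genes tested, and all windows were unique for 41.5% of the members and 65.4% of the genes. The 50-base windows match the read length, and only uniquely aligned reads were counted by the authors. The part of shared sequence in the strain patterns was not tested.

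A comparison the rule did not use is the level of a member between tissues, since rho is blind to a shift of a whole tissue. Between liver and lung, 88 of the 180 members differed (limma-voom with strain as block, adjusted p (q) of at most 0.1 and a log2 difference of 1 or more in size), or 48.9% against 54.9% of all genes tested. Between liver and kidney 59 differed (32.8% against 36.6%), and between lung and kidney 87 (48.3% against 46.3%). These shares are near the background. Of the 88, 49 were higher in liver and 39 in lung, and over all genes tested 23.7% passed as higher in liver and 31.2% as higher in lung. This balance turned with the scaling, to 41 and 48 with DESeq2 size factors and 39 and 49 with the DESeq2 Wald test. The size factors moved the median log2 difference of all genes from -0.07 to -0.30. Of the 59, 40 were higher in liver and 19 in kidney, against 14.7% and 22.0% of all genes. Of the 87, 48 were higher in lung and 39 in kidney, against 24.6% and 21.7% of all genes, and with DESeq2 size factors this split was 50 and 31. At least 1 tissue pair differed for 117 of the 180 members, beside 65.9% of all genes tested. All 3 pairs differed for 20 of the 180, beside 17.0% of all genes tested, and 63 members passed in no pair.

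The filter over all libraries can be met through 1 tissue alone, and a gene that met it only where it is high had to differ between tissues. Of the 180 members, 132 had over 1 CPM in at least 24 libraries of each tissue, and 48 did not, S100a8, C1s2, Gm4951, H2-Ea-ps, H2-Q2 and Tgtp2 among them. This limit used CPM on library totals without TMM, unlike the CPM values printed here. Among the 132, a restriction chosen after seeing the data, 55 differed between liver and lung (41.7%, against 44.4% of the 8138 genes that met it), 35 between liver and kidney (26.5% against 25.6%) and 58 between lung and kidney (43.9% against 37.2%). The last 58 were 26 higher in lung and 32 higher in kidney, the reverse of the balance over all members.

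The largest differences were those of Ahcy, Pm20d1, Gm4951 and S100a8. Ahcy had 117 ± 97 CPM in liver and 0.755 ± 0.621 in lung (SD, n = 47), a log2 difference of 7.21 (SE 0.08, limma-voom adjusted p = 3.6e-93), and was higher in liver in 47 of 47 strains. Its lung mean lay under 1 CPM, near the floor, so the size of this difference is uncertain, although Ahcy met the limit on library totals without TMM. Pm20d1, an enzyme of N-acyl amino acids, was higher in liver than in lung by 6.31 (SE 0.08) and higher in kidney than in lung by 5.95 on the log2 scale (lung minus kidney -5.95), again in 47 of 47 strains each. Gm4951, which did not reach 1 CPM in 24 libraries of each tissue, had 106 ± 76.1 CPM in liver and 2.11 ± 4.65 in kidney. S100a8, which did not do so either, had 11.4 ± 17.4 CPM in lung and 0.307 ± 0.595 in kidney. Cox7c was higher in liver than in lung by 2.45 (SE 0.14, limma-voom adjusted p = 6.8e-32) in 39 of 47 strains, and its liver and kidney levels were 16.3 ± 28.0 and 14.9 ± 21.3 CPM, a log2 difference of -0.05 (SE 0.13, limma-voom adjusted p = 0.72).

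Of the 7 MHC members, 6 were higher in lung than in kidney and 4 higher in liver than in kidney, where 24.6% and 14.7% of all genes were. Between liver and lung, 2 were higher in liver and 3 in lung, beside 23.7% and 31.2% of all genes. H2-K1 had 601 ± 336 CPM in liver and 99.9 ± 144 in kidney, a log2 difference of 2.78 (SE 0.10, limma-voom adjusted p = 9.1e-47), and H2-Eb1 was lower in liver than in lung with a log2 difference of -2.26 (SE 0.11). Of the 6 interferon members, 5 were higher in lung than in kidney and 3 higher in lung than in liver, where 24.6% and 31.2% of all genes were. Oasl2 was at -2.06 for liver minus lung (SE 0.08) and higher in lung in 47 of 47 strains. H2-Ea-ps, H2-Q2 and Tgtp2 in these counts did not reach 1 CPM in 24 libraries of each tissue. Marker genes of immune cells lay the same way, with median summed CPM in lung and kidney of 33.8 and 0.730 for B cells, 6.19 and 0.327 for the leukocyte marker and 7.14 and 0.183 for neutrophils. The neutrophil sum holds S100a8, itself a member. The part of these cells in the differences was not tested. The 6 heat-shock and cold-inducible members passed in 2 cases, both higher in kidney than in lung, where 21.7% of all genes were. These were Hspa8, with a lung minus kidney log2 difference of -1.39 (SE 0.05), and Hsph1, with -1.43 (SE 0.08). Rpl37 passed in no pair, with log2 differences of 0.52, 0.66 and 0.14.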

How the data were processed

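Reads of 50 bases were aligned by the authors to genomes made for each strain from mm9 with STAR 2.5.3a and quantified with RSEM, tools also listed in the submitters' processing notes. The expected count per gene deposited by the authors was rounded to a whole number and used throughout. The TPM deposited by the authors served only for alternatives, and the FPKM was not used. Strain and tissue were taken from the labels, which give no batch.

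CPM were scaled by TMM over all libraries (edgeR 4.0.16), and log2 CPM used a prior count of 1. Tissues were compared by limma-voom in R 4.3.3 (limma 3.58.1), where strain was a block because the 3 libraries of a strain come from the same mouse, and p-values were adjusted by Benjamini-Hochberg over 12127 genes (q of at most 0.1 and a log2 difference of 1 or more in size). Replicates within a tissue are different strains, and the block takes out the mean level of each strain. The p-values therefore measure how the difference between tissues varies from strain to strain. Zero meant at or under 3 counts in each tissue. Positions and 50-base windows used GENCODE vM1, and promoters and the microRNA came from RefSeq (GRCm38.p6). The rule and the tissue comparison were also run on simulated counts. These held no shifts in Rn45s, and the rule was run there without TMM, so its dependence on the scaling was not tested.

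The members and lists were chosen with earlier results of these data known. Genes named are the 10 members with the highest lowest rho, the 10 with the largest SD at 10 CPM or more, the 10 with the most strains at zero, 3 on each side of the threshold, up to 6 per class, those named in the study (1 is not reported here), the 3 largest tissue differences per pair and the largest groups of linked members. Further members were named after their values were seen (Baz1b, Ddx23, Mndal, Tceanc2, Irgm2, Gm12250, Nlrc5 and those of the clusters). Python 3.11.15 with pandas 2.3.3 and scipy 1.17.1 was used. Chromatin accessibility and genotypes were not analysed here.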

Additional observations from a re-analysis of the deposited data

How the results depend on the processing

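The number of members was 180, and it fell to 47 on library totals without TMM and to 73 on both log2(TPM + 1) and log2(TPM + 0.1). Pearson's r gave 298, and thresholds of 0.4, 0.6 and 0.7 gave 363, 84 and 40. Totals less Rn45s and Lars2, a setting chosen after seeing the data, gave 172, of which 148 were members. Leaving out the 19 strains with a library that had over 50% of its counts in Rn45s, also chosen after seeing the data, gave 211, of which 140 were members. Leaving out CC032 and CC042 was chosen after seeing the data as well. The other settings gave 132 to 215. Members with a strain at zero numbered 46, and 19 when zero meant 0 counts or 71 when it meant at most 10. With no fold threshold, 159, 149 and 157 members differed between liver and lung, liver and kidney, and lung and kidney. Among members over 1 CPM in at least 24 libraries of each tissue, chosen after seeing the data, 55, 35 and 58 differed, since fewer members were counted. Without the strain block that pairs the tissues of a mouse, the counts were 84, 56 and 84 in place of 88, 59 and 87, and edgeR, DESeq2 and the settings not named here stayed within 1.5 times of these. Depth limits the low members most, since 7 members had under 1 CPM as the median of every tissue, and with 1 mouse per strain no error within a strain could be had.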
